A study of Mus musculus with 20 samples.

Results

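The BCL2 family decides whether mitochondria release the factors that start apoptosis, and the stress kinase JNK is one of its regulators. Of 23845 genes counted in mouse brain, the 10 described here were taken by name: the BH3-only genes Bcl2l11 (BIM), Bbc3 (PUMA), Hrk (DP5), Bmf and Bad, the effector Bax, the anti-apoptotic genes Bcl2, Bcl2l1 (BCL-xL) and Mcl1, and Trp53, which encodes p53. All 10 were present in the count and TPM tables and all 10 passed the filter on low counts. They were read in 20 libraries from 7 groups: J17a (3 libraries), J17b (2), J27a (3), J27b (3), J1 lf/lf (3), J2 lf/lf (3) and Wild type (3). The study set brains of single-isoform JNK knockout lines beside control brains, all on a normal diet, to characterise the lines and their use of exons. All samples carry the strain label C57/Bl6J. The genotype labels are these codes alone. They do not say what each code removes or keeps, which promoter or Cre was used, or the age and sex of the mice, so groups are called by their labels. Whether replicate libraries stem from different mice is not stated, and the p-values therefore cover the spread between these samples alone, which may be technical.

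BH3-only proteins are death sensors. They bind anti-apoptotic relatives through a short BH3 helix, some also engage BAX directly, and active BAX then permeabilises the outer mitochondrial membrane. JNK acts on the family at several levels in neurons. Through c-Jun it promotes transcription of Bcl2l11 and Hrk after trophic support is withdrawn. It phosphorylates BIM and BMF within or next to the motif that holds them on dynein light chains. It can also phosphorylate BAD, MCL1, BCL2 and p53. p53 in turn activates transcription of Bbc3 and Bax. Only the transcriptional level is visible in these libraries.

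The BH3 core is the part that defines these genes as one family, and its coding sequence is shown for the 9 family members because it is what they share at the level of sequence. Each line holds 36 bases of coding sequence, 5′ to 3′, from the GENCODE M21 transcripts. The capitals mark the codons of the invariant leucine and aspartate of the core.
Bcl2l11: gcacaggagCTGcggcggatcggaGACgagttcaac
Bbc3: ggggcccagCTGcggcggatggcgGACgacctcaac
Hrk: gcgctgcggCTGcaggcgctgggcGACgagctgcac
Bmf: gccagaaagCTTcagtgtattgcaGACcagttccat
Bad: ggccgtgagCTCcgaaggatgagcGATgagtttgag
Bax: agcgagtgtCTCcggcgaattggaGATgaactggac
Bcl2: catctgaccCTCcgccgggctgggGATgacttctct
Bcl2l1: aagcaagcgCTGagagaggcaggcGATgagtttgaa
Mcl1: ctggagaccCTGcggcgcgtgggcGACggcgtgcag
Each coding sequence held 1 match to the core pattern. In mm10 the stretches lie in exon 3 of Bcl2l11 (chr2:128147141-128147176, plus strand), exon 3 of Bbc3 (chr7:16313764-16313799, plus strand), exon 1 of Hrk (chr5:118169882-118169917, plus strand), exon 4 of Bmf (chr2:118545100-118545135, minus strand) and exon 3 of Bad (chr19:6950783-6950818, plus strand). Those of the others lie in exon 3 of Bax (chr7:45465997-45466032, minus strand), exon 1 of Bcl2 (chr1:106712575-106712610, minus strand), exon 2 of Bcl2l1 (chr2:152829697-152829732, minus strand) and exon 1 of Mcl1 (chr3:95659427-95659462, plus strand). Bcl2l11 and Bbc3 were the most alike, with 25 of 36 bases identical, and Bmf and Bcl2l1 the least, with 12. Their GC content ran from 47.2% in Bmf to 77.8% in Hrk and Mcl1.

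BIM and BMF share a second short stretch, the dynein light chain motif within or beside which JNK phosphorylates the proteins. It is shown because it is the direct link between these 2 genes and JNK. The capitals mark the codons of the lysine, threonine, glutamine and threonine that both motifs hold.
Bcl2l11: tgtgacAAGtcaACACAAACCccaagt
Bmf: gaagacAAGgccACTCAGACCctcagt
These 27 bases lie in exon 2 of Bcl2l11 (chr2:128128948-128128974, plus strand) and exon 3 of Bmf (chr2:118546786-118546812, minus strand). Counts are per gene, so forms of Bcl2l11 or Bcl2l1 that differ by splicing were not separated, and phosphorylation was not measured.

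Library totals ran from 21395041 to 33828755 estimated counts. The tissue label was met by the transcripts: the synaptic gene Snap25 stood at 2768 to 3679 TPM and the myelin gene Mbp at 3248 to 4960 TPM in the 20 libraries, while the liver gene Alb did not exceed 3.62 TPM. Parts of the brain were unevenly represented, with summed cerebellar markers at 845 to 1815 TPM and summed pituitary markers at 1.18 to 11610 TPM. In bulk tissue, fewer cells of a type and less RNA per cell cannot be told apart.

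Of the 10 genes, Bcl2l1 had the highest transcript level. Bnip3, a family gene outside the 10, stood higher, at a median of 193 TPM. TPM, which corrects for transcript length, allows genes to be compared. Bcl2l1 had a median of 121 TPM (range 96.9 to 131) and was the highest of the 10 genes in 20 of 20 libraries. Bax followed at 69.0 TPM (49.4 to 80.5), Mcl1 at 56.4 TPM (52.5 to 62.2) and Bad at 50.2 TPM (38.3 to 57.2). Trp53 stood at 24.9 TPM (19.5 to 31.4), Hrk at 17.4 TPM (14.2 to 21.2) and Bcl2 at 11.3 TPM (9.35 to 13.8). The remaining BH3-only genes were low, with Bbc3 at 6.54 TPM (3.04 to 10.7), Bcl2l11 at 3.69 TPM (3.02 to 4.66) and Bmf at 2.71 TPM (1.84 to 3.62). The median of Bcl2l1 was 44.9 times that of Bmf.

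Some neighbours in that order were not separated. The ranges of Bax and Mcl1 overlapped, and Bax was the higher in 19 of 20 libraries. Those of Trp53 and Hrk overlapped too, although Trp53 was the higher in 20 of 20. Mcl1 exceeded Bad in 17 of 20, Bcl2 exceeded Bbc3 in 19 of 20, Bbc3 exceeded Bcl2l11 in 19 of 20 and Bcl2l11 exceeded Bmf in 17 of 20. Bcl2l1 and Bax, Bad and Trp53, and Hrk and Bcl2 did not overlap. Within a library the TPM ratio of Bcl2l1 to Bax lay between 1.44 and 2.09, and that of Bcl2 to Bax between 0.133 and 0.279. The ratio of Bcl2l1 to Bax was 1.57 to 2.05 in J17b and 1.44 to 2.09 in J27a, against 1.63 to 2.01 in Wild type.

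**Figure D1:**
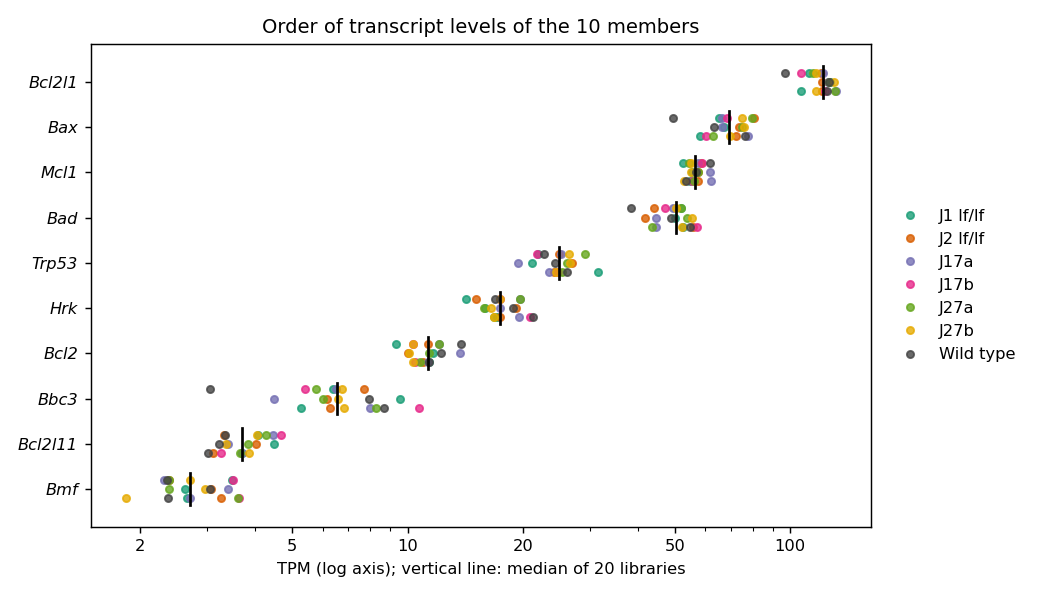
Transcript levels of the 10 genes in TPM on a log axis, 1 point per library coloured by group, with a line at the median of 20 libraries. Bcl2l1, at 96.9 to 131 TPM, lies apart from the rest, and Bbc3 spreads most, at 3.04 to 10.7 TPM.

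None of the 10 genes passed the test in any comparison after correction over all genes. The 13 comparisons were each line against Wild type, J17a against J17b, J27a against J27b, J17a and J17b against J1 lf/lf, J27a and J27b against J2 lf/lf, and the difference between the J17a-to-J17b and the J27a-to-J27b difference. They share libraries, so they are not independent. Over them, 0 of 130 tests passed an edgeR adjusted p of 0.05, the smallest adjusted p was 0.638, and DESeq2 and limma also called 0. At an unadjusted p under 0.05 edgeR gave 8 of 130 (6.15%), beside 5.79% of the tests of all 16063 genes. Where 2 groups were compared, the libraries did not overlap in 15 of 120 cases (12.5%), beside 13.5% for all genes. These shares of the 10 genes stood close to those of all genes.

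Against Wild type, the counts by line were as follows. In J1 lf/lf 0 of 10 were called (0.0125% of all genes), 2 had an unadjusted p under 0.05 (5.04% of all genes) and 1 did not overlap (8.3%). In J2 lf/lf 0 were called (0.00623%), 0 passed unadjusted (7.94%) and 0 did not overlap (10.4%). In J17a 0 were called (0%), 0 passed unadjusted (4.39%) and 1 did not overlap (6.53%). In J17b 0 were called (0.0249%), 1 passed unadjusted (5.85%) and 3 did not overlap (15.4%). In J27a 0 were called (0%), 0 passed unadjusted (4.84%) and 1 did not overlap (8.01%). In J27b 0 were called (0%), 1 passed unadjusted (6.94%) and 2 did not overlap (11.9%). The median log2 fold change of the 10 genes ran from 0.01 in J17b to 0.10 in J27a, beside -0.00455 and -0.000589 for all genes in the same 2 comparisons.

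**Figure D2:**
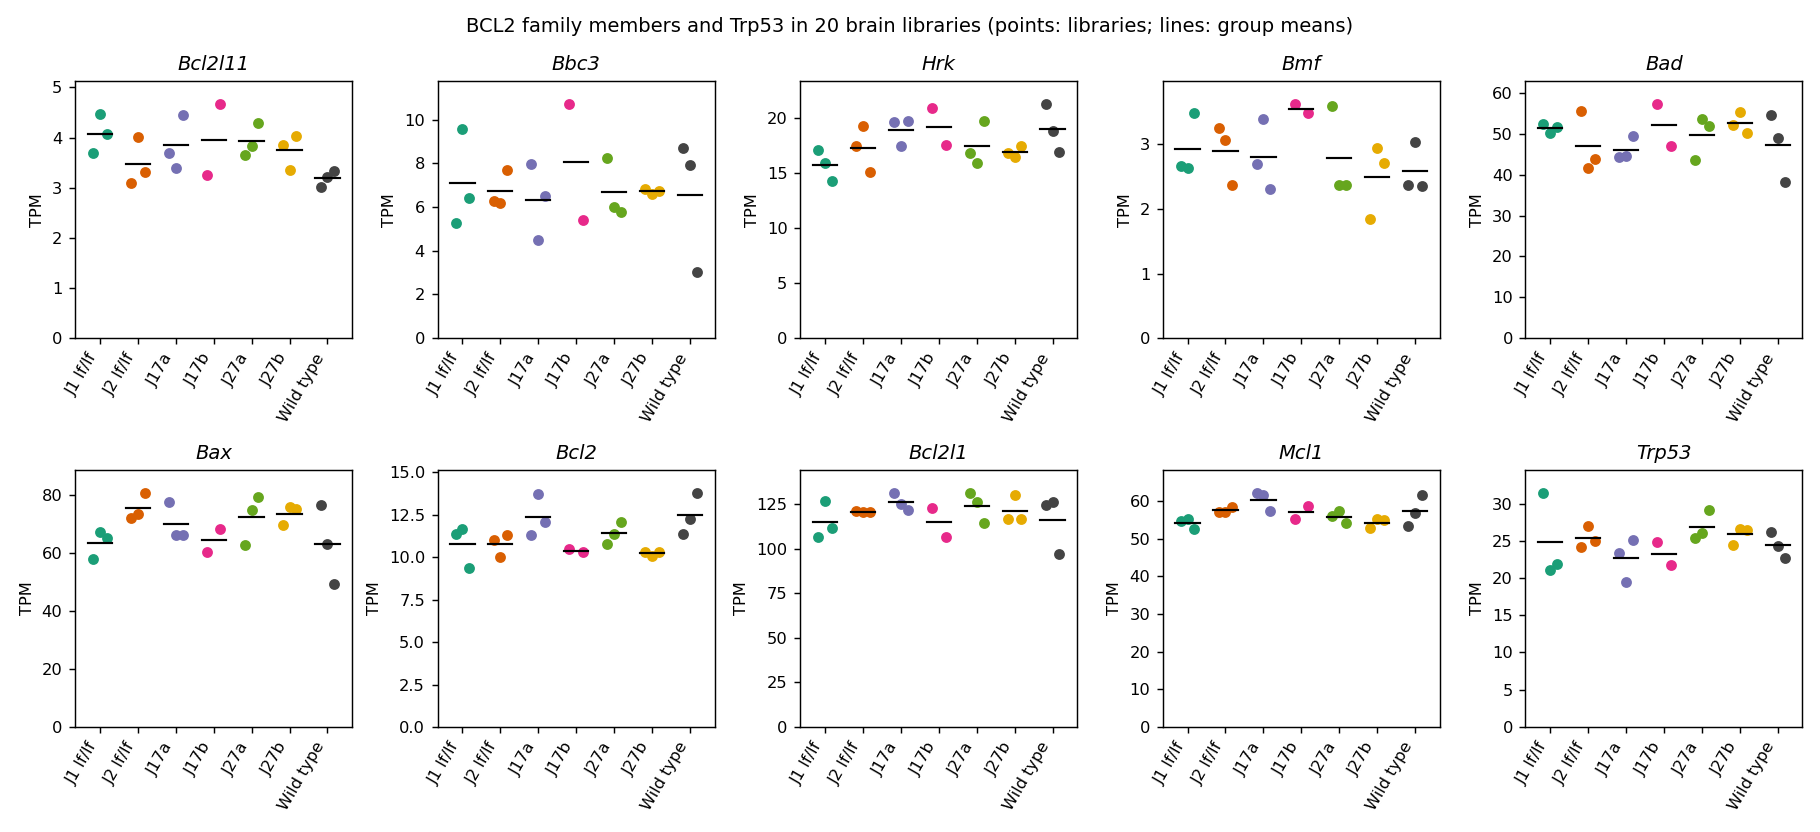
TPM of each gene in every library, by group, with a line at the group mean and axes that start at 0. Bcl2l11 in Wild type (3.02 to 3.34 TPM) lies at the low end of its panel and Bbc3 in Wild type spans 3.04 to 8.68 TPM.

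Bcl2l11 encodes BIM, which binds every anti-apoptotic BCL2 protein. For comparisons between groups, levels are in CPM, counts scaled to library size with TMM factors. It stood at 7.26, 8.85 and 8.23 CPM in J1 lf/lf, at 7.14, 6.64 and 8.89 CPM in J17a and at 6.75 and 8.81 CPM in J17b, against 6.11, 6.53 and 6.34 CPM in Wild type. It stood at 7.03, 7.67 and 7.97 CPM in J27a and at 6.20, 7.88 and 6.63 CPM in J2 lf/lf. In J27b it stood at 7.235, 6.56 and 7.45 CPM, a mean of 7.08 ± 0.461 CPM against 6.33 ± 0.213 CPM in Wild type (SD, n = 3 each). In CPM every library of J1 lf/lf, J17a, J17b, J27a and J27b lay above the highest Wild type library, while J2 lf/lf overlapped Wild type. The margin was narrow in J27b, whose lowest library had 6.56 CPM beside 6.53 CPM in Wild type replicate 2. In TPM J17b overlapped Wild type, with 3.26 TPM in J17b replicate 1 and 3.34 TPM in Wild type replicate 3. The comparisons of the 5 lines use the same 3 Wild type libraries, whose spread for this gene was small. The fold changes ran from 1.12 in J27b (95% interval 0.907 to 1.38, edgeR adjusted p = 0.823) to 1.28 in J1 lf/lf (1.04 to 1.58, adjusted p = 0.944). Within J1 lf/lf the 2 libraries with the most Bcl2l11, replicates 2 and 3, also held the most olfactory bulb transcripts, with the 6 markers summing to 122.5 and 80.7 TPM beside 21.2 TPM in replicate 1 and 24.9 to 34.3 TPM in Wild type. The same markers summed to 27.9 to 32.9 TPM in J17a and 30.7 to 31.4 TPM in J17b, within the Wild type range. They summed to 22.0 to 41.4 TPM in J27a and 28.15 to 40.9 TPM in J27b. Striatal markers summed to 787 to 823 TPM in J27a, against 918 to 1074 TPM in Wild type, without overlap. Other marker sets that stood apart from Wild type in J17b and J27b are given below with Bcl2. The part of these markers in the result was not tested.

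Bbc3 encodes PUMA, the p53-induced BH3-only protein, and was the most variable of the 10. It stood at 7.94 and 3.82 CPM in J17b, at 3.84, 6.97 and 4.86 CPM in J1 lf/lf and at 5.85, 3.25 and 4.77 CPM in J17a, against 6.41, 5.94 and 2.101 CPM in Wild type. The other 9 libraries, of J27a, J27b and J2 lf/lf, lay between 4.23 and 6.06 CPM. The highest library, J17b replicate 1, had 3.78 times the CPM of the lowest, Wild type replicate 3. The groups overlapped in all 12 comparisons of 2 groups. The standard deviation within groups was 0.484 on the log2 scale, beside a median of 0.166 over all tested genes, and exceeded that of 86.4% of them. Against Wild type the log2 fold changes ran from -0.07 in J17a to 0.28 in J17b, with 95% intervals that together reached from a fold of 0.588 to 2.08.

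Hrk encodes DP5, a BH3-only protein made mainly in neurons. It stood at 37.5, 35.1 and 32.7 CPM in J1 lf/lf, against 47.4, 42.8 and 35.1 CPM in Wild type. Replicate 1 of J1 lf/lf lay above the lowest Wild type library, so the groups overlapped, and the log2 fold change was -0.25 (SE 0.113, edgeR adjusted p = 0.944). It was -0.15 without Wild type replicate 1, the highest of its group, and -0.36 without replicate 3, the lowest (SE 0.107, edgeR adjusted p = 0.218). The 2 J1 lf/lf libraries with the high olfactory bulb markers were the lower 2 of their group for Hrk, and the part of those markers was not tested. The other lines had means of 37.9 (J27b) to 42.1 CPM (J17b), beside 41.8 ± 6.21 CPM in Wild type (SD, n = 3).

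Bmf, the dynein-bound relative of BIM, was the least abundant. Its libraries stood at 6.97 and 6.36 CPM in J17b, against 4.54, 5.91 and 4.20 CPM in Wild type, and did not overlap. The fold change was 1.36 (95% interval 0.966 to 1.91, edgeR adjusted p = 0.883). Summed cerebellar markers were 1454 and 1799 TPM in the same J17b libraries and 1195 to 1598 TPM in Wild type. Neuronal markers summed to 6308 to 6427 TPM in J17b, against 6501 to 7265 TPM in Wild type, GABAergic markers to 2320 to 2323 TPM in J17b, against 2332 to 2514 TPM in Wild type, and ependymal markers to 54.2 to 62.6 TPM in J17b, against 35.1 to 44.15 TPM in Wild type. The part of these sets was not tested. In the other lines the log2 fold change ran from -0.04 (J27b) to 0.19 (J1 lf/lf).

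Bad encodes the BH3-only protein that growth factor signalling holds inactive on 14-3-3 proteins. It overlapped in all 12 comparisons, with group means of 16.3 (J17a) to 18.5 CPM (J27b) in the lines and 16.2 ± 3.51 CPM in Wild type (SD, n = 3). Its log2 fold changes against Wild type ran from 0.01 to 0.19, and the smallest adjusted p was 0.771. Bad was the only one of the 10 whose estimated counts were not whole, in 20 of 20 libraries, as RSEM gives where reads are divided between genes. Bad (chr19:6941861-6951899, plus strand, mm10) overlaps Gpr137 on the opposite strand, and no source used here states whether counting used strand.

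Bax, the pore-forming effector, had its highest group mean in J2 lf/lf. Its libraries stood at 18.04, 18.03 and 19.9 CPM in J2 lf/lf, against 19.1, 15.9 and 11.8 CPM in Wild type. The J2 lf/lf values were close together and the highest Wild type library lay among them, with a fold change of 1.19 (95% interval 0.986 to 1.45, edgeR adjusted p = 0.638). The log2 fold change, 0.26, depended on single Wild type libraries: it was 0.09 without Wild type replicate 3 and 0.42 without replicate 1 (smallest edgeR adjusted p on leaving out a library 0.331). With an index of GC content as a term it was 0.13. Oligodendrocyte markers summed to 7376 to 7946 TPM in J2 lf/lf, against 5748 to 7084 TPM in Wild type. Microglial markers summed to 391.9 to 427 TPM, against 336.7 to 388.1 TPM. Ependymal markers summed to 50.26 to 63.1 TPM, against 35.1 to 44.15 TPM, and red blood cell markers to 2851 to 3827 TPM, against 3876 to 5925 TPM. The part of these sets was not tested. Bax overlaps the predicted gene Gm45808 on its own strand. In the other lines the log2 fold change of Bax ran from 0.01 in J17b to 0.22 in J27b.

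Bcl2, the founding anti-apoptotic member, stood apart in 4 of 12 comparisons, those of the 7b lines with Wild type and with the 7a lines. It stood at 31.97 and 29.8 CPM in J17b and at 31.8, 30.9 and 30.8 CPM in J27b, against 34.4, 38.0 and 39.05 CPM in Wild type. All libraries of the 7b lines lay below all Wild type libraries. The log2 fold changes were -0.27 in J17b (SE 0.105, edgeR adjusted p = 0.747) and -0.25 in J27b (SE 0.0929, adjusted p = 0.708). The lf/lf lines, which overlapped Wild type, had means of 32.7 ± 3.22 CPM (J1 lf/lf) and 32.8 ± 2.77 CPM (J2 lf/lf), against 37.1 ± 2.47 CPM in Wild type (SD, n = 3 each). Both gave a log2 fold change of -0.18. Against these lf/lf lines the 7b lines overlapped, with log2 fold changes of -0.08 for J17b over J1 lf/lf and -0.08 for J27b over J2 lf/lf. Bcl2 overlaps Gm37053 and Mir3473f on its own strand and D630008O14Rik on the opposite strand.

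Several marker sets also stood apart from Wild type in the 7b lines, without overlap. Summed GABAergic markers were 2320 to 2323 TPM in J17b and 2058 to 2241 TPM in J27b, against 2332 to 2514 TPM in Wild type. In J1 lf/lf they were 2406 to 2745 TPM, beside a mean Bcl2 of 32.7 CPM. In J17a they were 2220 to 2464 TPM, beside a mean Bcl2 of 37.1 CPM. In J17b neuronal markers summed to 6308 to 6427 TPM, against 6501 to 7265 TPM in Wild type, and ependymal markers to 54.2 to 62.6 TPM, against 35.1 to 44.15 TPM in Wild type. In J27b oligodendrocyte markers summed to 7098 to 7467 TPM, against 5748 to 7084 TPM in Wild type, and precursor markers to 299.6 to 310.6 TPM, against 232.2 to 282 TPM in Wild type. Cerebellar markers summed to 875 to 1003 TPM in J27b, against 1195 to 1598 TPM in Wild type. Their part in the Bcl2 values was not tested.

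Against their 7b partners the 7a lines had more Bcl2, without overlap, at 33.8, 41.0 and 36.5 CPM in J17a against 31.97 and 29.8 CPM in J17b, and at 32.3, 34.4 and 36.4 CPM in J27a against 31.8, 30.9 and 30.8 CPM in J27b. The fold of J17a over J17b was 1.2 (95% interval 1.03 to 1.4, adjusted p = 0.748) and that of J27a over J27b 1.1 (0.963 to 1.26, adjusted p = 0.952). In these 2 comparisons 19.8% and 17.3% of all genes stood apart. The difference between them was 0.13 on the log2 scale (95% interval -0.17 to 0.42). Some marker sets stood apart here too. Neuronal markers summed to 6494 to 7006 TPM in J17a and ependymal markers to 32.75 to 49.1 TPM, apart from the J17b sums above. In J27a GABAergic markers summed to 2271 to 2488 TPM, oligodendrocyte markers to 5520 to 6883 TPM and precursor markers to 225.8 to 272.6 TPM, apart from J27b. Glutamatergic markers summed to 2488 to 2776 TPM in J27a and 2291 to 2417 TPM in J27b. Their part was not tested. Over the alternatives the adjusted p of Bcl2 in J17b against Wild type ran from 0.365 to 1.

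Bcl2l1, the most abundant anti-apoptotic gene, overlapped in all 12 comparisons. Its means were 108 (J17b) to 120 CPM (J17a) in the lines and 111 ± 20.1 CPM in Wild type (SD, n = 3), where replicate 3 was the lowest of the 20 libraries at 87.65 CPM. The 95% intervals against Wild type together spanned folds of 0.827 to 1.26. Mcl1, which encodes a short-lived anti-apoptotic protein, was the steadiest. Its CPM differed by no more than 1.16 times between any 2 of the 20 libraries, and its standard deviation within groups, 0.0434 on the log2 scale, exceeded that of 0.405% of tested genes. Against Wild type all intervals of Mcl1 lay between folds of 0.883 and 1.15, which leaves changes beyond those bounds outside the intervals.

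Mcl1 was also the gene with the smallest adjusted p in J17a against J1 lf/lf. It stood at 86.6, 84.95 and 80.0 CPM in J17a, against 75.5, 76.5 and 75.9 CPM in J1 lf/lf, with no overlap and a log2 fold change of 0.14 (95% interval 0.02 to 0.26, edgeR adjusted p = 0.697). Hrk did not overlap in this comparison either, at 43.3, 38.2 and 43.7 CPM in J17a against 37.5, 35.1 and 32.7 CPM in J1 lf/lf (log2 fold change 0.25, 95% interval 0.02 to 0.49, edgeR adjusted p = 0.728).

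Trp53 (chr11:69580359-69591873, plus strand), the tumour suppressor upstream of Bbc3 and Bax, overlapped in all 12 comparisons. Its group means were 14.7 (J17a) to 17.4 CPM (J27a) in the lines and 15.8 ± 1.54 CPM in Wild type (SD, n = 3). The highest library was J1 lf/lf replicate 1 at 20.1 CPM, beside 13.6 and 14.8 CPM in the other 2 of that group. The log2 fold changes against Wild type ran from -0.10 in J17a to 0.14 in J27a, and the intervals together spanned folds of 0.765 to 1.33. p53 is controlled mainly at the protein level, which was not measured.

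**Figure D3:**
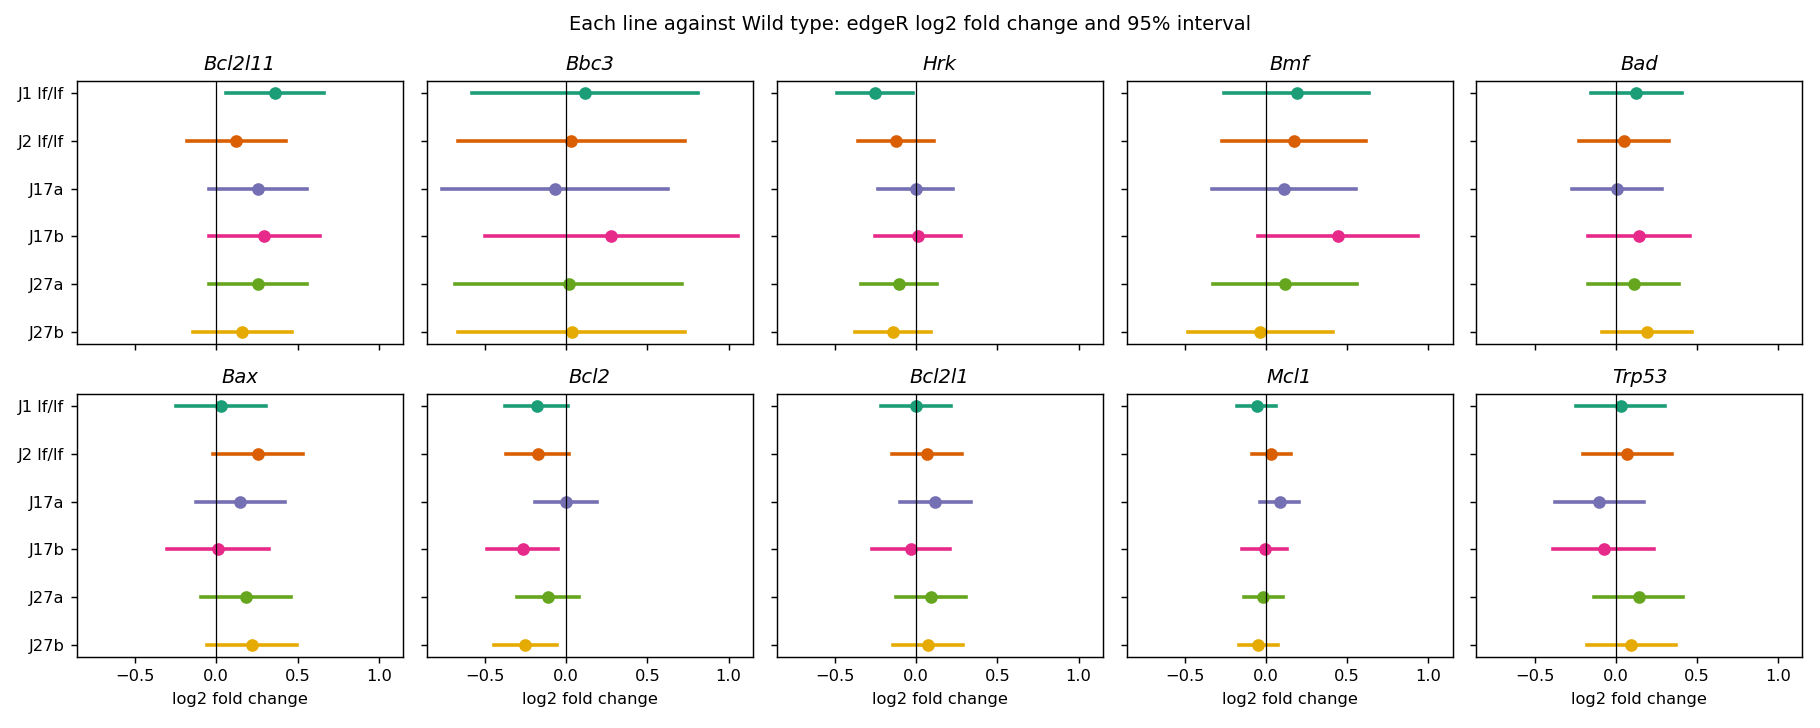
Log2 fold change (point) and 95% interval (line) from edgeR for each line against Wild type, 1 panel per gene. Intervals are widest for Bbc3, reaching from -0.77 to 1.06, and narrowest for Mcl1, from -0.18 to 0.21, and no comparison passed the threshold over all genes.

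The direct comparisons between lines gave no call either. In J17a against J17b 0 of 10 were called (0% of all genes), 1 had an unadjusted p under 0.05 (5.9%) and 2, Bcl2 and Mcl1, did not overlap (19.8%). In J27a against J27b 0 were called (0%), 0 passed unadjusted (5.79%) and Bcl2 alone did not overlap (17.3%). In J17a against J1 lf/lf 0 were called (0.00623%), 2 passed unadjusted (6.54%) and 2 did not overlap (11.9%). In J17b against J1 lf/lf 0 were called (0.0311%), 1, Hrk, passed unadjusted (4.22%) and 1, Mcl1, did not overlap (19%). In J27a against J2 lf/lf 0 were called (0.00623%), 0 passed unadjusted (6.36%) and 0 did not overlap (16.7%). In J27b against J2 lf/lf 0 were called (0.00623%), 0 passed unadjusted (4.75%) and 1, Mcl1, did not overlap (16.4%). For the difference between the 7a-to-7b differences, J17a over J17b minus J27a over J27b, 0 were called (0.00623%) and 0 passed unadjusted (6.7%). The value farthest from 0 there was that of Bmf, -0.49 on the log2 scale (95% interval -1.15 to 0.18, edgeR adjusted p = 0.861).

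The spread of several members followed a property of the libraries. A GC index was taken for each library as the mean log2 deviation of the tenth of tested genes with the most GC in their transcripts minus that of the tenth with the least. Wild type replicate 3 had the lowest index, -0.72, and J17a replicate 2 the next, -0.33, while the other 18 lay between -0.20 and 0.24. Wild type replicate 3 also had the lowest Bbc3, Bad, Bax and Bcl2l1 CPM of the 20 libraries. The transcripts of Bbc3 and Bax have 65.2% and 63.5% GC, at percentiles 99.5 and 99 of the tested genes, those of Bad and Bcl2l1 57.1% and 55.9%, while those of Mcl1, Bcl2l11 and Bcl2 have 46.3% to 48.7%.

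Across the 20 libraries Bbc3 correlated with the index (Pearson r = 0.773, permutation p = 4e-04, adjusted over the 10 genes 0.004), but by rank less so (Spearman rho = 0.433, permutation p = 0.058, adjusted 0.29). Bcl2l1 had r = 0.74 (adjusted permutation p = 0.0073) and rho = 0.385 (adjusted 0.31), Bax r = 0.723 (adjusted 0.0073) and rho = 0.499 (adjusted 0.27), and Bad r = 0.664 (adjusted 0.013) and rho = 0.189 (adjusted 0.64). The other 6 genes had r from -0.436 (Bcl2) to 0.376 (Trp53), with adjusted permutation p of 0.1 or more. Without the 2 libraries farthest from the median index, Wild type replicate 3 and J17a replicate 2, r was 0.366 for Bbc3, 0.0116 for Bad, 0.397 for Bax and 0.645 for Bcl2l1. Over the 20 libraries the relation of Bad rested on these 2, and that of Bbc3 and Bax was weaker without them. Among the 10 libraries with title numbers up to 10, r was 0.839 for Bbc3, 0.89 for Bcl2l1, 0.858 for Bax and 0.694 for Bad. Among the 10 above it was 0.632, 0.39, 0.29 and 0.805 in the same order.

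With the index as a term in the fit, the standard error of a Bbc3 comparison was 0.629 times as large in the median and that of Bcl2l1 0.640 times, beside 1.007 for Bcl2l11. The log2 fold change of Bbc3 in J2 lf/lf against Wild type was then -0.30 (SE 0.221) in place of 0.03 (SE 0.333). No member was called with the term (smallest edgeR adjusted p = 0.295, Mcl1 in J17a against J1 lf/lf). Bcl2 in J17a against J17b was at 0.27 (SE 0.0928, adjusted p = 0.365).

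**Figure D4:**
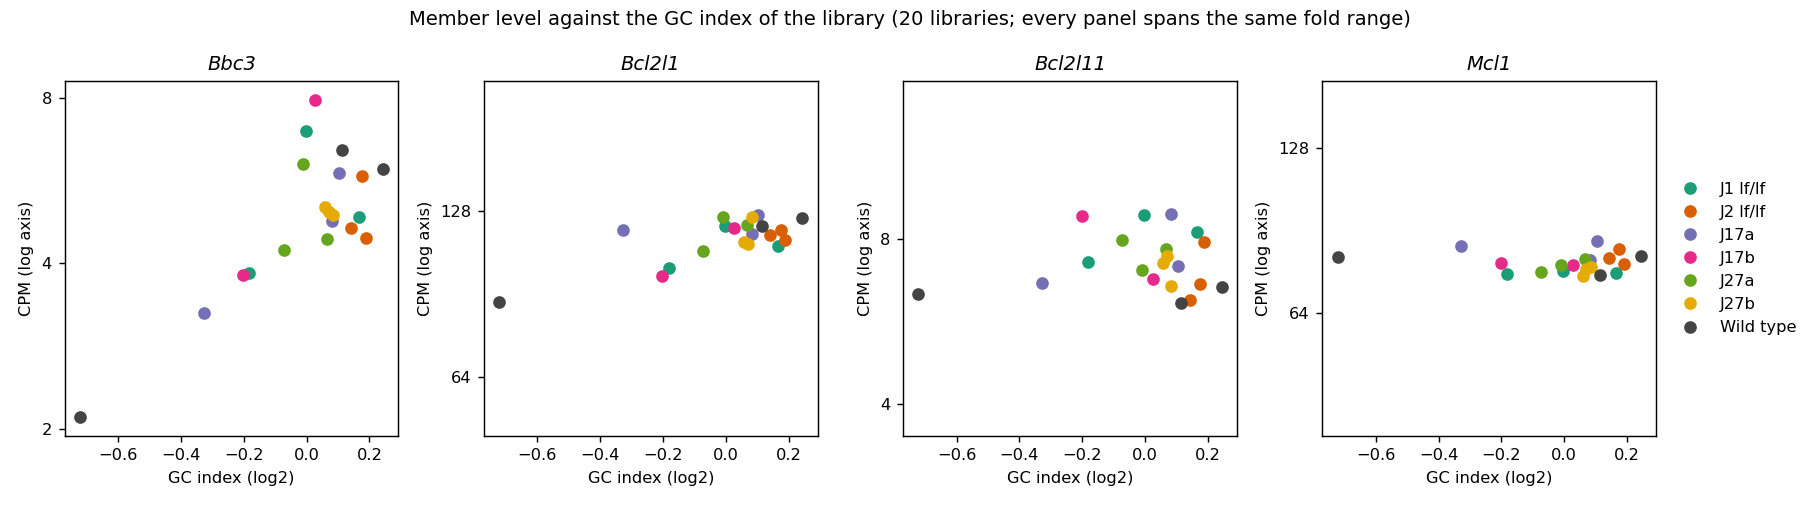
CPM on a log axis against the GC index of the library (log2 units) for 4 genes, 1 point per library coloured by group, with the same fold range in each panel. Bbc3 (r = 0.773) and Bcl2l1 (r = 0.74) are lowest in Wild type replicate 3 at the left, while Bcl2l11 (r = 0.0854) and Mcl1 (r = -0.112) show no such slope.

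Some members varied together. Over the 20 libraries the closest pair was Bbc3 and Bcl2l1 (Pearson r of log2 CPM 0.762), followed by Bbc3 and Bad (0.661) and Bax and Bcl2l1 (0.607), all among the 4 genes that followed the GC index. Bcl2 and Mcl1 had r = 0.463, and the lowest value was that of Bad and Mcl1 at -0.461. The 12532 other genes with a mean of at least 1 on the log2 CPM scale were searched for those most like each member. Bcl2l1 was closest to Rita1 (r = 0.925) and Chtf8 (0.924), Bbc3 to Nrxn2 (0.916) and Chtop (0.883), and Bax to Mfsd5 (0.891) and Kctd17 (0.889). Bad was closest to Tspo (0.847) and Tymp (0.837), Trp53 to Olfm2 (0.796) and Ttll11 (0.771), and Bcl2 to Eif3a (0.78) and S100a10 (0.774). Bcl2l11 was closest to Amotl2 (0.777) and Kcnk9 (0.733), Hrk to Rasgef1c (0.768) and Dok4 (0.74), Mcl1 to Ing5 (0.755) and Itga5 (0.747), and Bmf to Sil1 (0.747) and Fahd2a (0.721). These are the highest of many values and share library, depth and base composition.

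The wider pathway gave no calls outside the JNK genes. Of 97 entries in 5 lists, 92 were tested in 13 comparisons, and edgeR called 0 in either direction over all genes. At an unadjusted p under 0.05 it gave 77 of 1196 tests (6.44%), beside 5.79% for all genes. Of the other BCL2 family genes, 12 of 16 were tested. The most abundant were the mitophagy receptor Bnip3 (median 193 TPM) and Bnip3l (118 TPM). The anti-apoptotic Bcl2l2, or BCL-w, followed at 103 TPM and, like Bcl2l1, exceeded Bax. Bok, another BAX relative, had 65.5 TPM and Bak1, the second classical effector, 12.9 TPM. The smallest unadjusted p was that of Bid, the BH3-only protein cut by caspase-8, with 8.24 ± 0.707 CPM in J27b, against 5.78 ± 0.459 CPM for J2 lf/lf (± SD of 3 libraries). Its log2 fold change was 0.51 (SE 0.152, edgeR adjusted p = 0.694). List medians ran from -0.04 to 0.07 over the 13 comparisons, and those of all genes from -0.0095 to 0.0044.

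Apoptosome and caspase genes (17 of 17 tested) had medians of -0.06 to 0.06. Casp6, an executioner caspase, stood at 1.26 ± 0.182 CPM in J27b, against 2.34 ± 0.23 CPM for J2 lf/lf (± SD of 3 libraries), a log2 fold change of -0.88 (SE 0.272, edgeR adjusted p = 0.723). Cycs, the cytochrome c that BAX pores release, had a median of 129 TPM and Casp9, the initiator caspase, 18.4 TPM, while Apaf1, the scaffold that joins them, had 6.33 TPM. Of the p53 regulators (12 of 12 tested, medians -0.06 to 0.0094) Trp73 was at 4.33 ± 0.582 CPM in J2 lf/lf and 3.03 ± 0.516 CPM in Wild type (SD, n = 3 each; adjusted p = 0.624), and Mdm2, the ligase that degrades p53, had a median of 33.4 TPM. Of the p53 target genes (23 of 24 tested, medians -0.11 to 0.08) Ddit4, also induced by stress hormones, was at 25.4 ± 4.95 CPM in J27a, against 43.7 ± 4.45 CPM for J2 lf/lf (± SD of 3 libraries), a log2 fold change of -0.78 (SE 0.213, edgeR adjusted p = 0.42). Ddit4 passed under 2 alternatives, the DESeq2 Wald test in that comparison (adjusted p = 0.0499) and edgeR on the compared groups alone in J27b against J2 lf/lf (log2 fold change -0.74, adjusted p = 0.00137). At an unadjusted p under 0.05 the list gave 36 of 299 tests (12.04%), beside 5.79% for all genes, while the other 4 lists gave 5.77% (other BCL2 family), 4.53% (apoptosome and caspases), 1.92% (p53 regulators) and 5.22% (BH3-only regulators and partners). The comparisons share libraries, so these tests are not independent. The p53 target Cdkn1a, a cell cycle inhibitor, had a median of 35.5 TPM.

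Regulators and partners of the BH3-only proteins (28 of 28 tested) include c-Jun, the FOXO factors, dynein light chains and 14-3-3 proteins. In J17b against Wild type 27 of 28 were negative, with a median log2 fold change of -0.08 beside 51.1% negative and a median of -0.00455 for all genes, and edgeR called 0. The count stayed at 27 with DESeq2 size factors, the DESeq2 Wald test, no filter and the compared groups alone. It was also 27 with the replicate block, limma and the GC index as a term. Without Wild type replicate 1 it was 21, without replicate 2 it was 23 and without replicate 3 it was 21. Without J17b replicates 1 and 2 it was 26 and 20. A term for title numbers up to 10 or above gave 19, but only J17a had libraries on both sides of that split. With the term, J17b against Wild type or J1 lf/lf also rests on the spread within J17a. It can therefore decide little, here or for Mapk8 below. The smallest adjusted p was 0.61, that of Dynll1, the dynein light chain that binds BIM, at 139 ± 14.4 CPM in J17b (SD, n = 2) and 171 ± 15.5 CPM in Wild type (SD, n = 3), a log2 fold change of -0.30 (SE 0.0974). In J17a against J17b, which uses the same 2 J17b libraries, 6 of 28 were negative, beside 49.5% of all genes, with a median of 0.06. Among the JNK genes, edgeR called Mapk8 lower in J17b, at 76.9 ± 3.21 CPM (SD, n = 2), against 122 ± 16.2 CPM in Wild type (adjusted p = 0.0128) and 114 ± 10.4 CPM in J1 lf/lf (SD, n = 3 each; adjusted p = 0.0486). The log2 fold changes were -0.67 and -0.57. Both calls held with the DESeq2 Wald test (adjusted p = 3.48e-06 and 0.000491), with the GC index as a term (1.13e-05 and 5.79e-05), with no filter (0.00644 and 0.0343) and with DESeq2 size factors (0.0135 and 0.0485). Neither held without J17b replicate 1 (adjusted p = 0.0802 and 0.156) or replicate 2 (0.238 and 0.825), with the replicate block (0.0598 and 0.148), with limma on log2(TPM + 1) (0.118 and 0.473), with the title number as a covariate (0.29 and 0.269), or with the compared groups alone (1 and 0.141). Against J1 lf/lf it was also lost without any one J1 lf/lf library (0.1 to 0.407). In all these alternatives the log2 fold change stayed between -0.75 and -0.56 against Wild type and between -0.64 and -0.52 against J1 lf/lf. None of the 10 genes was called in these 2 comparisons. Mapk9 was not called in the edgeR fit of all groups, although some of its log2 fold changes were larger. It was at -1.24 in J2 lf/lf against Wild type (SE 0.269, edgeR adjusted p = 0.586). Against J2 lf/lf it was at 1.14 in J27a (SE 0.269, edgeR adjusted p = 0.42) and 1.03 in J27b (SE 0.269, adjusted p = 0.566). All of these Mapk9 values use the same J2 lf/lf libraries.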

How the data were processed

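Poly(A)-enriched brain libraries were read as paired ends of 150 bp, per the labels' protocols. The estimated counts per gene and the TPM values the authors deposited were made with cutadapt and RSEM on mm10, per the submitters' processing notes. No source used here gives versions, annotation or strand setting. Estimated counts (4.11% not whole) were rounded and tested with edgeR 4.0.16 in R 4.3.3: TMM factors of 0.975 to 1.03, filterByExpr (16063 genes), and robust quasi-likelihood fits of all 20 libraries with a mean per group. P-values were adjusted by Benjamini-Hochberg over all tested genes of a comparison (threshold 0.05, two-sided). The biological coefficient of variation was 0.12. Intervals are 95% intervals of the fit. CPM uses the TMM factors.

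The members, lists and alternatives were chosen with earlier results of these data known. The rule for named genes was all 10 members, the 2 genes most like each in log2 CPM (predicted genes left out), and for each pathway list the called genes or the 1 with the smallest p over the comparisons. Others named for their level, and Mapk9, were chosen after their values were seen. Tigar was not in the table under that symbol. Alternatives were DESeq2 1.42.0 size factors and its Wald test, no filter, only the compared groups, the replicate number as a block, limma 3.58.1 (trended) with pseudocounts of 1 and 0.1 on log2 TPM, the title number (up to 10 or above), each library left out, and, added after seeing the data, the GC index. Positions, transcripts and transcript GC (longest protein-coding transcript, 95.6% of tested genes) come from GENCODE M21, whose build is mm10. Correlations used permutation tests with 100000 resamples. The fits were tested on simulated data. No 2 libraries of a group agreed within sampling noise.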

Additional observations from a re-analysis of the deposited data

How the results depend on the processing

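In each of the 13 comparisons 0 of 10 members were called under every alternative listed, including the replicate block (0 of 10) and each library left out (0 to 0). The replicate numbers did not pair the libraries: deviations of same-numbered libraries from their group means correlated between -0.176 and 0.148, and in 0 of 12 comparisons was every pair over 0.1. Of 1970 member values recomputed, 1870 stayed within 1 standard error of the reported value and 100 moved by more, 69 of them on leaving out a library, 30 on adding the title number and 1 on adding the GC index. Only J17a has libraries on both sides of the title number split, so that term largely follows the groups. The sign differed in 175 of the recomputed values, where no value was called. The smallest adjusted p over all alternatives was 0.218, for Hrk in J1 lf/lf without Wild type replicate 3. Bbc3 had 53 to 208 counts and Bmf 106 to 200 counts per library. Over all genes, calls numbered 0 to 5 a comparison with edgeR and 1 to 31 with the DESeq2 Wald test. They reached 54 in J17b against Wild type without Wild type replicate 3 (4 with it), and 125 in J27a against J27b (0 in the fit of all groups) and 81 in J27b against J2 lf/lf (1) with the compared groups alone. None of these calls was one of the 10.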
